A study of Homo sapiens with 16 samples.

Results

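The mitochondrially encoded genes are the 37 genes of the small circular genome inside mitochondria, and they were taken here as all genes whose symbol begins with MT- among the 61906 genes of the deposited tables. They comprise 13 messenger RNAs (mRNAs), 2 ribosomal RNAs (rRNAs) and 22 transfer RNAs (tRNAs). Short-read RNA-seq was made from HEK-293T cells, an embryonic kidney line that carries the SV40 large T antigen, and from HT-1080 cells, a fibrosarcoma line. Cells of each line were transfected by lipofection with a small interfering RNA at 20 nM, either siHNRNPH1, against the nuclear RNA-binding protein HNRNPH1, or the control siNegative, and RNA was taken 48 h later. There were 3 libraries, labelled as biological replicates, in each of the 4 groups, and 1 full-length cDNA (IsoSeq) pool per group, 16 samples in all. All 4 groups were transfected, both lines are long-established cultures, and no untransfected group was analysed.

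Mitochondrial DNA is transcribed from promoters on both of its strands into long precursors that are cut, mostly at the tRNAs that lie between the other genes, into single mRNAs, rRNAs and tRNAs. The mRNAs encode core subunits of complexes I, III, IV and V of the respiratory chain and ATP synthase, which couple the oxidation of nutrients to ATP production. The rRNAs and tRNAs serve the mitochondrion's own ribosomes. All the proteins that transcribe, process, protect and translate these RNAs come from nuclear genes, among them GRSF1, a mitochondrial RNA-binding protein of the same family as HNRNPH1.

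Library totals were 107.7 to 121.0 M (mega) expected counts in HEK-293T and 27.3 to 32.7 M in HT-1080, so line and depth cannot be told apart. HNRNPH1 stood at 1107, 1105 and 1121 counts per M counts of the library (CPM) in the HEK-293T siNegative libraries and at 234, 376 and 394 CPM under siHNRNPH1, a log2 fold change of -1.76 (SE 0.20, edgeR adjusted p = 0.00939). That call was lost without any 1 siNegative library or siHNRNPH1 replicate 2 (log2 fold change -1.84 to -1.76, edgeR adjusted p = 0.0514 to 0.0761). In HT-1080 it stood at 635, 606 and 617 CPM under siNegative and at 231, 231 and 228 CPM under siHNRNPH1, a log2 fold change of -1.49 (SE 0.04, edgeR adjusted p = 6.76e-09). The HEK-293T siHNRNPH1 replicate 1 library stood apart from the other libraries of its group, and its chi-square over genes, divided by the degrees of freedom, was 810.5 and 847.3 against them, where that between them was 9.10. HT-1080 siNegative replicate 2 departed less, at 17.8 and 17.4 against 1.78. Of the markers fixed for each line, 4 of 6 HEK-293T markers and 8 of 8 HT-1080 markers were higher in their own line. NEFL and LHX1 were higher in HT-1080, and the fibroblast markers S100A4 and THY1 were under 1 CPM in both lines.

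Transcripts of the mitochondrial genome made up 6.96% ± 0.220 (SD, n = 3) of all counts in HEK-293T siNegative and 4.74% ± 0.115 in HT-1080 siNegative. Under siHNRNPH1 the mRNA and rRNA shares moved in opposite directions within each line, and each moved in opposite directions in the 2 lines. In HEK-293T the mRNA share was lower and the rRNA share higher under siHNRNPH1. In HT-1080 the mRNA share was higher and the rRNA share lower. These shares use no scaling factor. They are sums over genes chosen with results of these data known, so they are given by library and with no test. With scaling, the median log2 fold change of the 13 mRNAs was -0.22 in HEK-293T and 0.08 in HT-1080. Over all genes tested it was 0.02 and 0.01. In each line, 4 of the 13 mRNAs went the other way. In bulk RNA, a different mix of cells and a different amount of RNA per cell cannot be told apart.

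In HEK-293T, the 13 mRNAs together took 6.38%, 6.26% and 6.64% of the siNegative libraries and 6.04%, 5.53% and 5.51% of the siHNRNPH1 libraries. All 3 siHNRNPH1 libraries lay below all 3 siNegative libraries, and the mean of 5.69% ± 0.302 (SD, n = 3) was 0.885 times the mean of 6.43% ± 0.194. Replicate 1 was the highest of the siHNRNPH1 libraries, and without it the ratio was 0.858. The 2 rRNAs together took 0.513%, 0.521% and 0.565% under siNegative and 0.793%, 0.758% and 0.773% under siHNRNPH1. Here the siHNRNPH1 libraries were all higher, by 1.45 times on their means, and by 1.44 times without replicate 1.

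In HT-1080, the mRNAs took 4.01%, 4.08% and 3.93% under siNegative and 4.49%, 4.35% and 4.41% under siHNRNPH1. Every siHNRNPH1 library lay above every siNegative library, at 1.10 times on the means of 4.41% ± 0.071 and 4.01% ± 0.076 (SD, n = 3 each). The rRNAs took 0.674%, 0.792% and 0.737% under siNegative and 0.624%, 0.611% and 0.644% under siHNRNPH1. The siHNRNPH1 libraries were all lower, at 0.854 times on the means, and the siNegative libraries spread more widely than the others. Because the mRNA and rRNA shares moved apart, the share of all mitochondrially encoded genes moved less: in HEK-293T it was 6.47% ± 0.319 under siHNRNPH1, with groups that overlapped, and in HT-1080 it was 5.04% ± 0.077, above all siNegative libraries.

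The ratio of rRNA to mRNA does not depend on the library total. In HEK-293T it was 8.03, 8.31 and 8.51 rRNA counts per 100 mRNA counts under siNegative and 13.1, 13.7 and 14.0 under siHNRNPH1. In HT-1080 it was 16.8, 19.4 and 18.7 under siNegative and 13.9, 14.1 and 14.6 under siHNRNPH1. The groups did not overlap in either line. The lines differed 2.21-fold under siNegative (8.29 ± 0.242 in HEK-293T against 18.3 ± 1.36 in HT-1080), while under siHNRNPH1 they stood at 13.6 ± 0.452 and 14.2 ± 0.367 (SD, n = 3 each). Within each line the values of replicate 1 under siHNRNPH1 lay with those of replicates 2 and 3.

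**Figure D1:**
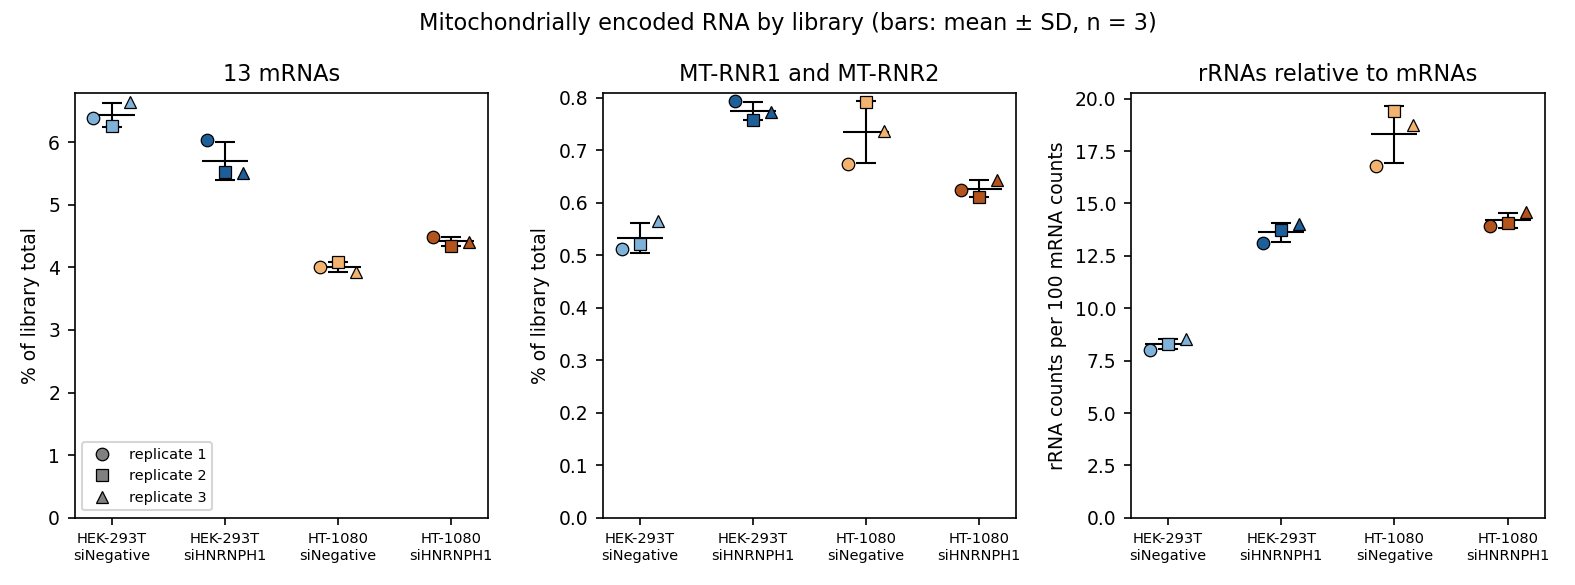
Share of the library total from the 13 mRNAs (left) and from MT-RNR1 and MT-RNR2 (middle), both in percent, and rRNA counts per 100 mRNA counts (right), with 1 point per library, mean and SD for the 4 groups. The siHNRNPH1 mRNA means are 0.885 times the siNegative mean in HEK-293T and 1.10 times in HT-1080, the rRNA means are 1.45 and 0.854 times, and in the right panel the siHNRNPH1 libraries of both lines lie between 13.1 and 14.6.

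Both rRNAs were higher in all siHNRNPH1 libraries than in all siNegative libraries of HEK-293T, and lower in HT-1080. MT-RNR2, the large-subunit (16S) rRNA, stood at 4064, 4149.8 and 4551 CPM in HEK-293T siNegative and at 6014, 6279 and 6380.4 CPM under siHNRNPH1. The groups did not overlap, and MT-RNR2 rose with a log2 fold change of 0.52 (SE 0.12, edgeR adjusted p = 0.0425). That call was lost when any of the 5 other HEK-293T libraries was left out (edgeR adjusted p = 0.1075 to 0.2315), and without siHNRNPH1 replicate 1 it was kept at 0.52 (edgeR adjusted p = 1.147e-05). In HT-1080, MT-RNR2 stood at 5297, 6055 and 5753 CPM under siNegative and at 5173, 4964 and 5256 CPM under siHNRNPH1, and it fell by 0.22 on the log2 scale (SE 0.06, edgeR adjusted p = 0.0106). Leaving out HT-1080 siHNRNPH1 replicate 2 ended that call (log2 fold change -0.20, edgeR adjusted p = 0.0614).

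MT-RNR1, the small-subunit (12S) rRNA, stood at 1061, 1058 and 1103 CPM in HEK-293T siNegative and at 1919, 1297 and 1345 CPM under siHNRNPH1. All siHNRNPH1 libraries were higher, with replicate 1 the highest, and the log2 fold change of 0.48 (SE 0.20) did not pass the test (edgeR adjusted p = 0.201). Without replicate 1 it was 0.24 (SE 0.03, edgeR adjusted p = 1.54e-07). In HT-1080, MT-RNR1 stood at 1439, 1862 and 1614 CPM under siNegative and at 1071, 1151 and 1180.4 CPM under siHNRNPH1. The groups did not overlap, and MT-RNR1 fell by 0.60 on the log2 scale (SE 0.09, edgeR adjusted p = 2.36e-04).

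The effects of siHNRNPH1 on both rRNAs differed between the lines in the test of the difference itself, an interaction fitted to all 12 libraries. The HT-1080 effect minus the HEK-293T effect was -1.16 for MT-RNR1 (SE 0.25, edgeR adjusted p = 0.00892) and -0.82 for MT-RNR2 (SE 0.13, edgeR adjusted p = 0.0016), on the log2 scale. Without HEK-293T siHNRNPH1 replicate 1 the values were -0.89 and -0.79 (edgeR adjusted p = 9.88e-06 and 5.45e-07). Of all genes tested, 19.0% differed between the lines in this way (8.13% with a higher and 10.8% with a lower effect in HT-1080), and without that library 49.0% did (22.7% and 26.4%).

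The 2 rRNAs did not keep the same proportion. In HT-1080 there were 3.68, 3.25 and 3.57 counts of MT-RNR2 per count of MT-RNR1 under siNegative and 4.83, 4.31 and 4.45 under siHNRNPH1, so that all siHNRNPH1 libraries were higher. In HEK-293T the siNegative libraries gave 3.83, 3.92 and 4.13. The siHNRNPH1 libraries gave 3.13, 4.84 and 4.74, with replicate 1 below and replicates 2 and 3 above every siNegative library. The authors' library preparation is not described in the labels used here, so whether rRNA was depleted or polyadenylated RNA selected is not known, and the rRNA counts are what either step left.

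**Figure D2:**
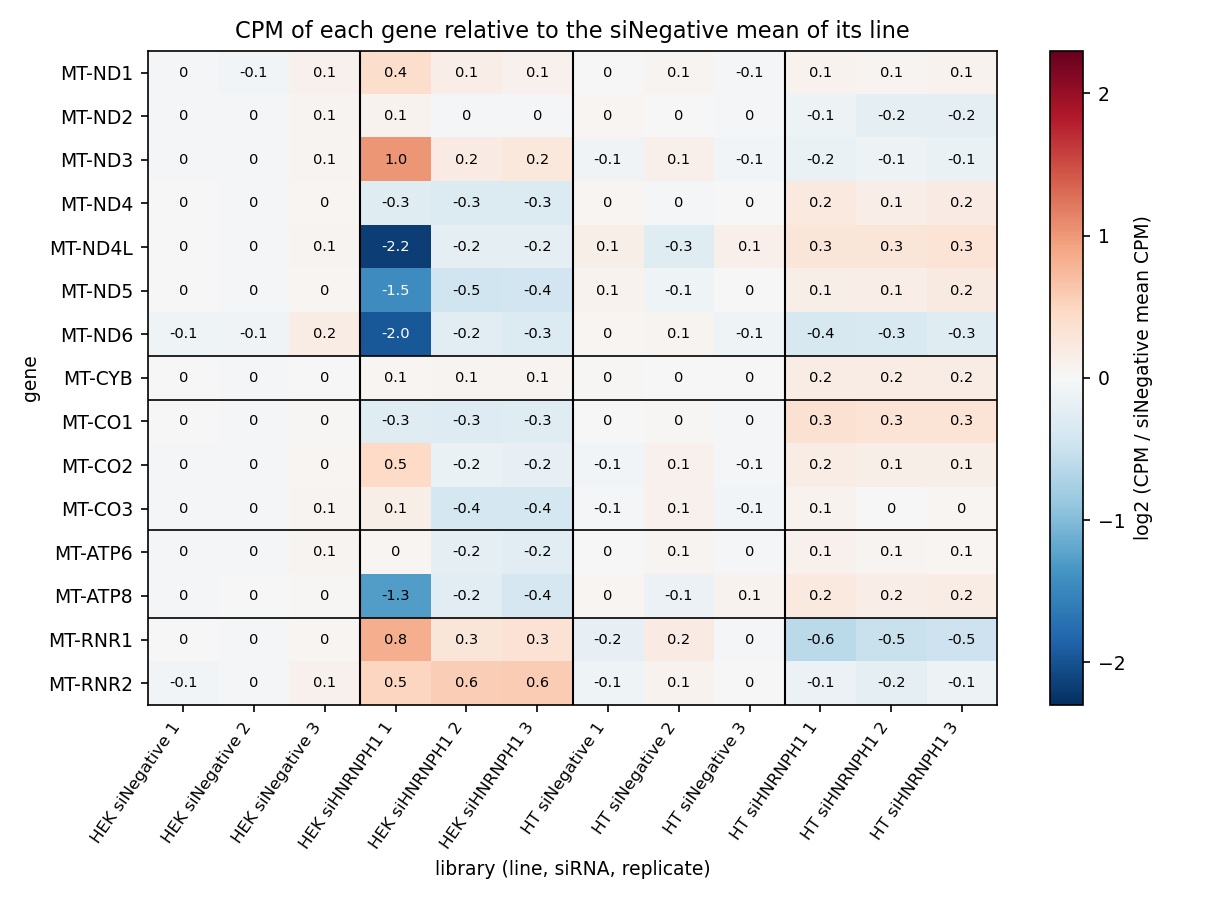
Each cell gives the log2 ratio of a gene's CPM (15 rows: complexes I, III, IV and V, then rRNAs) to the mean CPM of the 3 siNegative libraries of the same line, for each of the 12 libraries (columns, HEK for HEK-293T and HT for HT-1080). Replicate 1 of HEK-293T siHNRNPH1 stands apart at MT-ND4L, MT-ND5, MT-ND6, MT-ATP8, MT-ND3, MT-CO2, MT-CO3 and MT-RNR1, while MT-RNR2, MT-CO1, MT-ND4 and MT-CYB are alike in all 3 siHNRNPH1 libraries of that line.

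All 13 mRNAs passed the filter on low counts in each comparison. In HEK-293T, 0 of the 13 passed edgeR's test at an adjusted p under 0.05, where 10.0% of all genes tested did, and 3 had an unadjusted p under 0.05 (MT-ND4, MT-ND5 and MT-CO1). DESeq2 called 3 lower, the same 3 genes, and its share over all genes is not given here. Without siHNRNPH1 replicate 1, edgeR called 1 higher and 9 lower, against 30.5% of all genes called higher and 31.3% called lower, 61.8% in all. Their median log2 fold change was -0.22 over the 13 in the fit with all libraries, beside 0.02 over all genes tested.

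In HT-1080, 1 mRNA was called higher and 3 lower, where 32.7% of all genes tested were called higher and 32.6% lower. The median log2 fold change of the 13 was 0.08, beside 0.01 over all genes. With library size alone as the scaling, 7 were called higher and 2 lower, because the scaling factors of the siHNRNPH1 libraries (1.022 to 1.0257) exceeded those of the siNegative libraries (0.9689 to 0.9806). Without HT-1080 siNegative replicate 2, the counts were 6 higher and 3 lower. The share of all genes called is not given for either of these fits, so their counts have no background beside them.

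By CPM ranges, 6 of the 13 were lower in all HEK-293T siHNRNPH1 libraries than in all siNegative libraries and 2 were higher, where the shares over all genes were 21.0% and 22.7%. In HT-1080, 7 were higher and 3 lower in this sense, against 39.9% and 30.6% of all genes. Without HEK-293T siHNRNPH1 replicate 1, 9 were lower and 2 higher in HEK-293T, where 32.5% and 41.4% of all genes were, 73.9% in all. The HT-1080 counts are near those shares. The HEK-293T count of lower mRNAs is above its share, and since the heavy-strand mRNAs come from shared precursors they are not independent genes. The log2 fold changes of the 15 mRNAs and rRNAs had opposite signs in the lines for 9 genes, and for 10 without HEK-293T siHNRNPH1 replicate 1. Both effects are measured against controls of their own line, so no library is shared between them. The share of all genes with opposite signs was not computed, so these counts have no background beside them. Signs of values near 0 carry little, as for MT-ND1 and MT-ATP6 in HT-1080 (log2 fold changes 0.0045 and 0.0048).

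**Figure D3:**
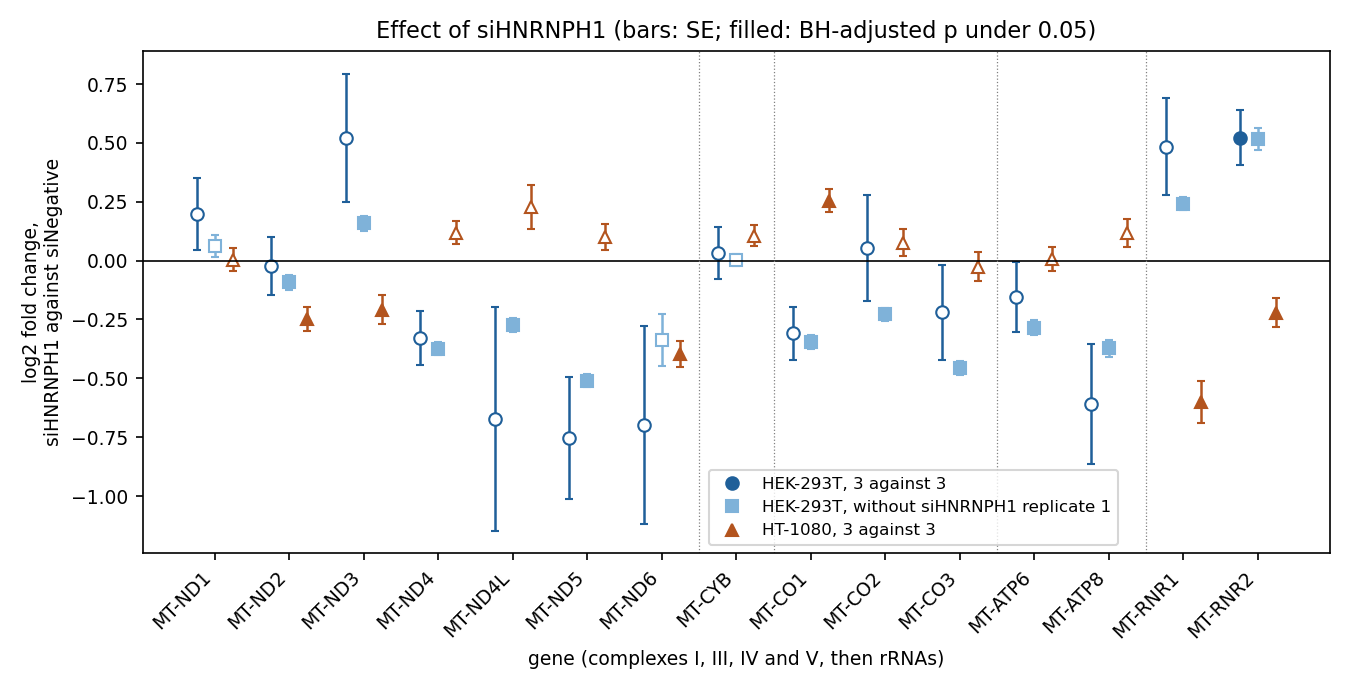
Log2 fold change of siHNRNPH1 against siNegative (y axis) with its SE for the 13 mRNAs, ordered by complex, and the 2 rRNAs, in HEK-293T with and without siHNRNPH1 replicate 1 and in HT-1080. Filled symbols passed edgeR's test at an adjusted p under 0.05. With all libraries these were MT-RNR2 in HEK-293T, and MT-ND2, MT-ND3, MT-ND6, MT-CO1, MT-RNR1 and MT-RNR2 in HT-1080. In HEK-293T without siHNRNPH1 replicate 1, all genes but MT-ND1, MT-ND6 and MT-CYB were filled.

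Complex IV, cytochrome c oxidase, passes electrons to oxygen, and its 3 mitochondrial mRNAs took the largest part of the mRNA counts in each group. MT-CO1, its catalytic subunit, stood at 15035, 14399 and 15197 CPM in HEK-293T siNegative and at 12279.9, 12125 and 12245 CPM under siHNRNPH1. The siHNRNPH1 libraries were all lower and close to each other, replicate 1 included, but the log2 fold change of -0.31 (SE 0.11) did not pass the test (edgeR adjusted p = 0.149). It was -0.35 without replicate 1 (SE 0.03, edgeR adjusted p = 3.91e-10). In HT-1080, MT-CO1 stood at 9409.6, 9576 and 9243 CPM under siNegative and at 11923, 11660.3 and 11704 CPM under siHNRNPH1. Here all siHNRNPH1 libraries were higher, and MT-CO1 rose with a log2 fold change of 0.25 (SE 0.05, edgeR adjusted p = 0.00125). The effects differed between the lines by 0.49 (SE 0.12, edgeR adjusted p = 0.0188), and MT-CO1 was the 1 mRNA of 13 to pass that test. The call was lost without HEK-293T siNegative replicate 3 or any HT-1080 library other than siNegative replicate 2 (0.47 to 0.50, edgeR adjusted p = 0.0524 to 0.0605).

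The other two subunits of the catalytic core followed MT-CO1 less closely. MT-CO2, which takes up electrons from cytochrome c, stood at 6882, 6914 and 7237 CPM in HEK-293T siNegative and at 9614, 6273 and 6190.3 CPM under siHNRNPH1. Replicate 1 lay above and replicates 2 and 3 below all siNegative libraries, and without replicate 1 the log2 fold change turned from 0.05 to -0.23 (edgeR adjusted p = 2.88e-07). MT-CO3 stood at 6623, 6564 and 6979 CPM under siNegative and at 7339, 5108 and 5089.8 CPM under siHNRNPH1, a log2 fold change of -0.22 with replicate 1 and of -0.46 without it (edgeR adjusted p = 0.540 and 6.19e-12). In HT-1080 the log2 fold changes were 0.08 for MT-CO2 and -0.03 for MT-CO3, neither past the test, and that of MT-CO3 was 0.04 when only library size was used for scaling.

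Complex I oxidises NADH and pumps protons, and 7 of the 13 mRNAs encode its membrane arm. MT-ND4 and MT-ND5 encode proton-pumping subunits. MT-ND4 stood at 9589, 9324 and 9822 CPM in HEK-293T siNegative and at 7873, 7659 and 7717 CPM under siHNRNPH1. The groups did not overlap, the log2 fold change was -0.33 (SE 0.11, edgeR adjusted p = 0.132), and without replicate 1 it was -0.37 (SE 0.03, edgeR adjusted p = 8.06e-11). In HT-1080, MT-ND4 stood at 5138, 4866 and 4961 CPM under siNegative and at 5829.6, 5534 and 5667 CPM under siHNRNPH1. These groups did not overlap either, and the log2 fold change of 0.12 (SE 0.05) did not pass the test (edgeR adjusted p = 0.0558).

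MT-ND5 stood at 5358, 5275 and 5583 CPM in HEK-293T siNegative and at 1974, 3922 and 3980.3 CPM under siHNRNPH1. All siHNRNPH1 libraries were lower, replicate 1 most of all, and the log2 fold change was -0.75 (SE 0.26, edgeR adjusted p = 0.135) with it and -0.51 (SE 0.03, edgeR adjusted p = 7.24e-13) without it. Among the mRNAs this last value was the largest fall in HEK-293T without replicate 1. In HT-1080, MT-ND5 stood at 1744, 1541 and 1664 CPM under siNegative and at 1822, 1829 and 1913 CPM under siHNRNPH1, a log2 fold change of 0.10 (SE 0.05, edgeR adjusted p = 0.127).

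MT-ND1, the subunit at the junction of the arms of complex I, and MT-ND2 stood differently. MT-ND1 stood at 3310.3, 3288 and 3663 CPM in HEK-293T siNegative and at 4503, 3791 and 3642 CPM under siHNRNPH1, with groups that overlapped (log2 fold change 0.20, SE 0.15, edgeR adjusted p = 0.463). In HT-1080 its log2 fold change was 0.00 (SE 0.05, edgeR adjusted p = 0.944). MT-ND2 stood at 3654, 3574 and 3464 CPM in HT-1080 siNegative and at 3301, 3037 and 3096 CPM under siHNRNPH1. It fell by 0.25 on the log2 scale there (SE 0.05, edgeR adjusted p = 0.00212), while in HEK-293T its log2 fold change was -0.02 (SE 0.12, edgeR adjusted p = 0.930), with a sign that turned when only library size was used. Without HEK-293T siHNRNPH1 replicate 1 it was -0.092 there (SE 0.03, edgeR adjusted p = 0.0190). With that fit for HEK-293T, 5 of the 15 mRNAs and rRNAs were called in both lines, 4 of them in opposite directions and MT-ND2 lower in both. Of all genes tested, 61.8% were called in that fit and 65.3% in HT-1080, and the share called in both was not computed.

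MT-ND3 is one of the shortest complex I mRNAs. It stood at 464, 457 and 492 CPM in HEK-293T siNegative and at 953, 540.2 and 554 CPM under siHNRNPH1. All siHNRNPH1 libraries were higher and replicate 1 far above the others, with a log2 fold change of 0.52 (SE 0.27, edgeR adjusted p = 0.288) that was 0.16 without replicate 1 (SE 0.03, edgeR adjusted p = 2.00e-04). In HT-1080 it stood at 566, 649.6 and 571 CPM under siNegative and at 536, 547 and 538 CPM under siHNRNPH1, and it fell by 0.21 on the log2 scale (SE 0.06, edgeR adjusted p = 0.0133). That call was lost with library size alone (edgeR adjusted p = 0.0590) and without HT-1080 siHNRNPH1 replicate 1 or 3 (0.0550 and 0.0534).

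MT-ND4L shares a bicistronic mRNA with MT-ND4, with reading frames that overlap, so short reads are divided between them by the authors' estimation. It stood at 695, 679.9 and 729.6 CPM in HEK-293T siNegative and at 156, 608 and 599.8 CPM under siHNRNPH1. Replicate 1 was far below replicates 2 and 3 at MT-ND4L, while MT-ND4 in the same library was slightly above theirs. The pair summed to 1.03% of the library total under siNegative and to 0.820% under siHNRNPH1, and these groups did not overlap. In HT-1080, siNegative replicate 2 had the lowest MT-ND4L, 482 CPM beside 639 and 635, and the siHNRNPH1 libraries had 711, 712 and 731 CPM. The pair summed to 0.557% and 0.639% of the library total in HT-1080, again without overlap.

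MT-ND6 is the one mRNA encoded on the other, light strand, opposite to the 12 heavy-strand mRNAs. It stood at 845, 851 and 764 CPM in HT-1080 siNegative and at 637, 647 and 676 CPM under siHNRNPH1. The groups did not overlap, and MT-ND6 fell by 0.40 on the log2 scale (SE 0.06, edgeR adjusted p = 1.69e-04), the largest fall among the mRNAs of that line. In HEK-293T it stood at 533, 543 and 644 CPM under siNegative and at 148, 482 and 462 CPM under siHNRNPH1, all lower, with a log2 fold change of -0.70 (SE 0.42, edgeR adjusted p = 0.350) and, without replicate 1, of -0.34 (SE 0.11, edgeR adjusted p = 0.0777). Per 100 heavy-strand mRNA counts there were 2.15, 2.13 and 1.98 counts of MT-ND6 in HT-1080 siNegative and 1.44, 1.51 and 1.56 under siHNRNPH1. In HEK-293T the same ratio was 0.842, 0.874 and 0.979 under siNegative and 0.246, 0.881 and 0.845 under siHNRNPH1, with overlap. Whether the counting used the strand of the reads is not given in the sources used here, and without strand, reads of MT-ND6 and of transcripts from the opposite strand cannot be told apart.

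The complex III mRNA MT-CYB encodes cytochrome b. It stood at 5018, 4925 and 5063 CPM in HEK-293T siNegative and at 5190.4, 5196 and 5227 CPM under siHNRNPH1, replicate 1 included, with log2 fold changes of 0.03 (SE 0.11, edgeR adjusted p = 0.882) and, without replicate 1, of 0.00. In HT-1080 it stood at 3233, 3143 and 3169 CPM under siNegative and at 3578, 3604 and 3588 CPM under siHNRNPH1, a log2 fold change of 0.11 (SE 0.04, edgeR adjusted p = 0.0598). The CPM of the siHNRNPH1 libraries were thus all higher in both lines, and neither line passed the test after scaling.

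Complex V, the ATP synthase, has 2 mitochondrial subunits whose reading frames also overlap on a shared mRNA. MT-ATP6 stood at 5261, 5228 and 5606 CPM in HEK-293T siNegative and at 5511, 4643 and 4522 CPM under siHNRNPH1. MT-ATP8 stood at 846, 862 and 885 CPM under siNegative and at 354, 729 and 661 CPM under siHNRNPH1, with replicate 1 the lowest. The MT-ATP6 groups overlapped, those of MT-ATP8 did not, and the log2 fold changes of -0.15 (SE 0.15, edgeR adjusted p = 0.553) and -0.61 (SE 0.26, edgeR adjusted p = 0.198) did not pass the test. Without replicate 1 both fell, by 0.28 and by 0.37 on the log2 scale (edgeR adjusted p = 5.99e-08 and 1.78e-07). Together they took 0.623% of the HEK-293T siNegative libraries and 0.547% of the siHNRNPH1 libraries. In HT-1080 they took 0.419% and 0.448%, the groups did not overlap, and the log2 fold changes of 0.00 and 0.12 did not pass the test.

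Summed by complex, the mRNA shares in HEK-293T were lower under siHNRNPH1 for complexes I (2.45% to 2.08% of the library total, on means) and V, without overlap of the groups. The complex IV share, 2.86% and 2.54%, overlapped because replicate 1 reached 2.92%, and did not overlap without that library. The complex III share was slightly higher, at 0.500% and 0.520%, without overlap. In HT-1080 the shares of complexes III (0.318% to 0.359%), IV (1.86% to 2.15%) and V were higher under siHNRNPH1 without overlap, and that of complex I (1.41% and 1.46%) overlapped.

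Composition, the percentage of the mitochondrial mRNA counts that each mRNA takes, is free of the library total and of the scaling between libraries. It changes for 1 mRNA when another changes, so it shows unequal change among them and not which of them moved. In HEK-293T, 5 mRNAs took a larger part in all siHNRNPH1 libraries (MT-ND1, MT-ND2, MT-ND3, MT-CYB and MT-CO2) and 4 a smaller part (MT-ND4, MT-ND5, MT-CO1 and MT-ATP8). In HT-1080, 1 took a larger part (MT-CO1) and 6 a smaller part (MT-ND1, MT-ND2, MT-ND3, MT-ND6, MT-CO3 and MT-ATP6). Groups were separate in both lines for 4 mRNAs, MT-ND1, MT-ND2, MT-ND3 and MT-CO1, each in opposite directions, and for none in the same direction. Without HEK-293T siHNRNPH1 replicate 1, MT-CO3 took a smaller part in both lines. These counts have no share over all genes beside them, since composition is defined among the mitochondrial mRNAs only.

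The part taken by MT-CO1 was 23.6%, 23.0% and 22.9% in HEK-293T siNegative and 20.3%, 21.9% and 22.2% under siHNRNPH1. In HT-1080 it was 23.4%, 23.5% and 23.5% under siNegative and 26.6%, 26.8% and 26.6% under siHNRNPH1. The lines thus started from nearly the same part of MT-CO1 and stood apart under siHNRNPH1. MT-ND2 took 6.69% and 7.57% on the means in HEK-293T and 8.89% and 7.12% in HT-1080. MT-ND5 took 8.40%, 8.42% and 8.40% in HEK-293T siNegative and 3.27%, 7.10% and 7.22% under siHNRNPH1, while in HT-1080 it took 4.12% and 4.20% on the means, with groups that overlapped.

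At baseline the lines differed in most of these RNAs. With siNegative, HT-1080 had 0.623 times the mRNA share of HEK-293T and 1.38 times the rRNA share. Of the 13 mRNAs, edgeR called 2 higher (MT-ND3 and MT-ND6) and 7 lower in HT-1080, and both rRNAs higher, in a comparison where 86.6% of all genes tested were called (40.8% higher and 45.8% lower). The largest difference was that of MT-ND5, with a log2 fold change of -1.46 in HT-1080 against HEK-293T (SE 0.06, edgeR adjusted p = 3.75e-09). Among the other mRNAs called lower, MT-CO2 stood at -0.73, MT-ND4 at -0.69 and MT-ND1 at -0.58 (SE 0.05 to 0.06, edgeR adjusted p = 1.40e-06, 3.49e-07 and 9.03e-06). MT-ND6 stood 1.71-fold higher in HT-1080 (log2 fold change 0.77, SE 0.08) and MT-ND3 1.51-fold (0.59, SE 0.06), with edgeR adjusted p of 7.99e-06 and 1.20e-05. MT-RNR1 and MT-RNR2 were 1.82-fold and 1.60-fold higher.

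The 4 other mRNAs, MT-ND2, MT-ND4L, MT-CO3 and MT-ATP8, did not pass that test, with log2 fold changes of -0.02, -0.01, 0.00 and 0.05. Scaling matters here. With library size alone the median of all genes moved by -0.25, and 11 of the 13 mRNAs were then called lower, MT-ATP8 at -0.21 among them, while MT-ND3 and MT-ND6 were still the 2 called higher. The share of all genes called in that fit is not given here. In CPM, which uses no scaling factor, 11 mRNAs were lower in every HT-1080 siNegative library and 2 were higher, beside 53.7% and 35.1% of all genes tested, 88.8% in all.

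**Figure D4:**
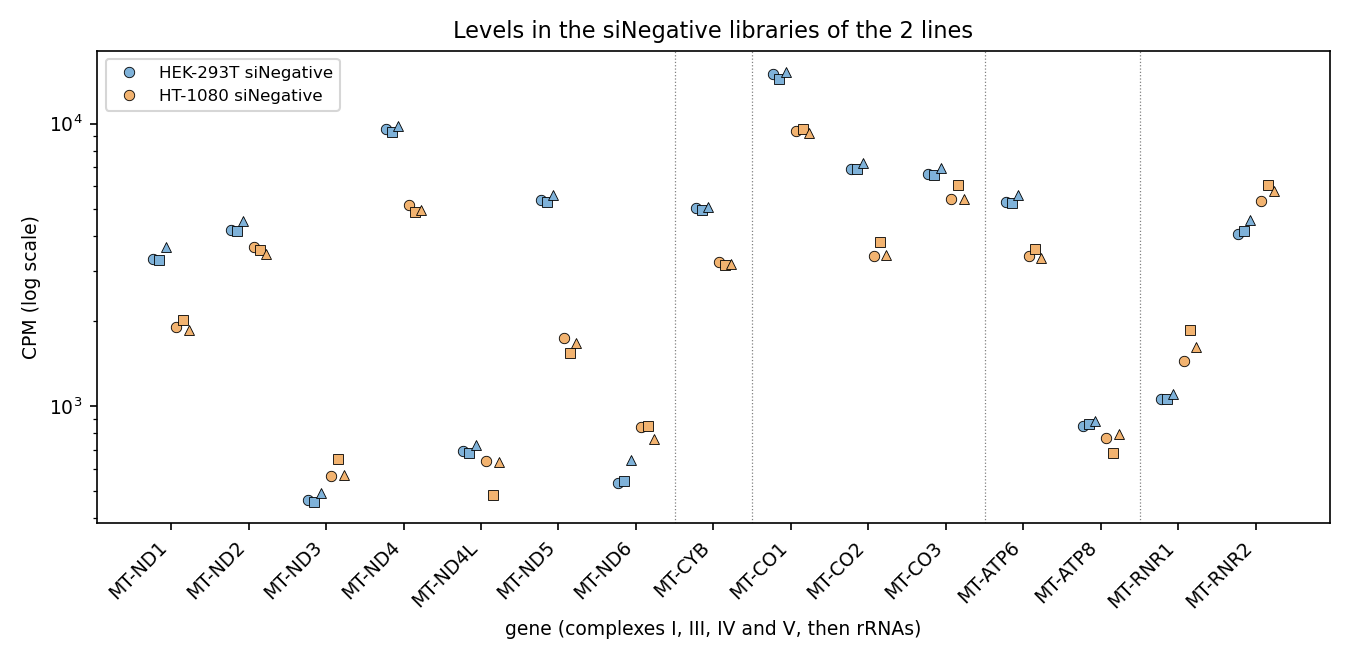
CPM (log axis) of the 13 mRNAs, ordered by complex, and the 2 rRNAs in the 3 siNegative libraries of each line, 1 symbol per replicate. MT-ND3, MT-ND6, MT-RNR1 and MT-RNR2 are higher in HT-1080 and the other 11 genes are lower, MT-ND5 by the largest factor.

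Levels are not compared between genes, since CPM grows with transcript length and lengths were not used here. The order within a gene across the 4 groups can be read. For MT-RNR2 the groups ran, on mean CPM, from HEK-293T siNegative through HT-1080 siHNRNPH1 and HT-1080 siNegative to HEK-293T siHNRNPH1. For MT-ND6 they ran from HEK-293T siHNRNPH1 through HEK-293T siNegative and HT-1080 siHNRNPH1 to HT-1080 siNegative, and the middle neighbours overlapped (644 CPM at most and 637 CPM at least). In the MT-RNR2 order the last neighbours overlapped (6055 CPM at most and 6014 CPM at least), and the others did not.

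The 22 tRNAs were nearly uncounted. Of these, 10 were at 0 in all 12 libraries and 12 had a count in at least 1 library, with 53 counts in all and none above 6 in a library. MT-TE, the glutamic acid tRNA, had 19 of these counts, MT-TH, the histidine tRNA, 10, and MT-TA, the alanine tRNA, 8. Summed over the tRNAs, the HEK-293T libraries had 2, 1 and 1 counts under siNegative and 1, 1 and 0 under siHNRNPH1, and the HT-1080 libraries had 1, 13 and 6 under siNegative and 7, 12 and 8 under siHNRNPH1. These values overlap between the siRNAs in both lines, and no tRNA passed the filter on low counts. A count of 0 allows up to 3 counts, a share of up to 2.78e-06% of a HEK-293T library and of up to 1.1e-05% of an HT-1080 library, and covers counting error only.

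Copies of mitochondrial DNA lie in the nuclear genome, and RSEM divides reads between near-identical sequences, so part of the counts could belong to either. The tables list 402 such copies by symbol, and together they took 0.0488% of the HEK-293T siNegative libraries and 0.0547% of the siHNRNPH1 libraries, and 0.0612% and 0.0679% in HT-1080. MTATP6P1 held most of these counts, 377 to 478 CPM in HEK-293T and 429 to 504 CPM in HT-1080, up to 14.1 counts per 100 counts of MT-ATP6. MTCO1P12, a copy of MT-CO1, stood at 26.8, 26.2 and 25.6 CPM in HEK-293T siNegative and at 92.9, 66.4 and 72.9 CPM under siHNRNPH1. In HT-1080 it stood at 56.3, 58.4 and 51.6 CPM and at 67.7, 73.5 and 86.1 CPM. It was thus higher under siHNRNPH1 in every library of both lines, whereas MT-CO1 was lower in HEK-293T and higher in HT-1080. Adding it to MT-CO1 left the ratios of siHNRNPH1 to siNegative means at 0.825 and 1.25.

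The IsoSeq pools, 1 per group and without read counts, listed 34 transcript models on the mitochondrial chromosome among 64705 in HEK-293T siNegative (0.0525%, exact Clopper-Pearson 95% interval 0.0364 to 0.0734) and 72 among 94847 in HEK-293T siHNRNPH1 (0.0759%, 0.0594 to 0.0956). In HT-1080 there were 213 among 72186 (0.295%, 0.257 to 0.337) and 211 among 68078 (0.310%, 0.270 to 0.355). Each model counts once whatever its abundance, so these are shares of models and not of RNA, and the intervals cover counting error only. The intervals of the 2 siRNAs overlap in each line, and those of the 2 lines do not. Nearly all models had a single exon, 97.1% to 99.1% by pool. On the minus strand there were 0 and 3 models in HEK-293T and 5 and 3 in HT-1080, in the order siNegative and siHNRNPH1. The most frequent end of a plus-strand model was position 4261 of chromosome MT (53 models over all 4 pools), followed by 3232 (39) and 12137 (38), each found in every pool. The model files name no genome build, and the submitters' processing notes name GRCh38.p13. Median model length was 2110.5 and 2081.5 bases in the HEK-293T pools and 818 and 950 bases in the HT-1080 pools.

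The nuclear genes that serve this genome were read from lists. Over 12 lists of transcription, replication, processing, stability, decay, translation and respiratory subunits, edgeR called 0 of 109 genes in HEK-293T, where 10.0% of all genes were called, while 10 had an unadjusted p under 0.05 and DESeq2 called 6. The share of all genes is not given for either of these last counts. In HT-1080 edgeR called 11 higher and 46 lower, 52.3% of the list genes beside 65.3% of all genes. Without HEK-293T siHNRNPH1 replicate 1 the HEK-293T counts were 17 higher and 71 lower, 80.7% beside 61.8%. By list, the genes called lower in HT-1080 were 3 of 4 for transcript processing, 8 of 12 for replication (with 3 higher), 6 of 9 for the nuclear complex III subunits, 3 of 5 for polyadenylation and decay, 4 of 7 for regulators of biogenesis and 5 of 9 for transcription, where 32.6% of all genes were called lower. They were 6 of 15 for RNA granules and stability (with 3 higher), 4 of 10 for translation factors, 4 of 16 for nuclear complex V subunits, 1 of 4 for complex II, 1 of 7 for nuclear complex I core subunits and 1 of 11 for nuclear complex IV subunits.

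The 78 mitoribosomal protein genes, whose products join the rRNAs in the mitochondrial ribosome, had 6 called higher and 54 lower in HT-1080, beside 32.7% and 32.6% of all genes, with a median log2 fold change of -0.35 beside 0.01 over all genes. In HEK-293T, 0 were called higher and 5 lower, beside 5.12% and 4.88% of all genes, with a median of 0.17, and without siHNRNPH1 replicate 1 the counts were 11 and 50, beside 30.5% and 31.3% of all genes in that fit, with a median of -0.22. That library thus turned the sign of the median. It did so too for nuclear complex IV subunits (0.25 with it and -0.21 without it). The same held for nuclear complex I core, III and V subunits, transcript processing and replication, and not for the other lists. The mitoribosomal protein genes that fell most strongly in both lines were MRPL42, MRPL50 and MRPL58, components of the large subunit of this ribosome. MRPL42 fell by 1.41 in HEK-293T and by 0.81 in HT-1080 on the log2 scale (edgeR adjusted p = 0.00611 and 3.64e-07). MRPL50 fell by 1.31 and by 2.55 (0.00611 and 5.99e-09), and MRPL58 fell by 2.05 and by 1.67 (0.0284 and 1.55e-06). The HEK-293T calls of MRPL42 and MRPL50 were lost when any 1 siNegative library was left out (edgeR adjusted p = 0.0656 to 0.0671), and that of MRPL58 when any 1 library other than siHNRNPH1 replicate 1 was left out (0.0752 to 0.126).

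Factors that act directly on these RNAs differed from one another. GRSF1, which binds G-rich sequences of light-strand transcripts in mitochondrial RNA granules, stood at 167, 169 and 169 CPM in HEK-293T siNegative and at 187, 214 and 227 CPM under siHNRNPH1 (log2 fold change 0.28, SE 0.11, edgeR adjusted p = 0.181, and 0.33 with adjusted p = 4.16e-09 without replicate 1). In HT-1080 it stood at 153, 154 and 148 CPM and at 136, 143 and 138 CPM, and it fell by 0.20 on the log2 scale (SE 0.04, edgeR adjusted p = 0.00278), a call lost with the spread shared over all 12 libraries (0.0624). The groups did not overlap in either line, and the effects differed between the lines by -0.55 (edgeR adjusted p = 0.00456). TFAM, which packages mitochondrial DNA and starts its transcription, stood at 132, 129.8 and 133 CPM in HT-1080 siNegative and at 93.2, 88.0 and 84.4 CPM under siHNRNPH1. It fell by 0.64 there (SE 0.05, edgeR adjusted p = 1.87e-06). In HEK-293T it stood at 136, 133 and 132 CPM and at 100.1, 186 and 198 CPM, with replicate 1 below and replicates 2 and 3 above the controls, and without replicate 1 the log2 fold change was 0.46 (edgeR adjusted p = 1.89e-11). The effects differed by -0.94 between HT-1080 and HEK-293T (edgeR adjusted p = 0.0207), and the call was lost when single HT-1080 libraries were left out (0.0508 to 0.0615 in 4 of the 6) and with library size alone (0.0604).

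LRPPRC and SLIRP form a complex that protects mitochondrial mRNAs, and POLRMT is the mitochondrial RNA polymerase. LRPPRC stood at 377, 380.3 and 379.9 CPM in HEK-293T siNegative and at 150.1, 133 and 145 CPM in HT-1080 siNegative, a log2 fold change of -1.16 between the lines (edgeR adjusted p = 8.45e-09). Under siHNRNPH1 its log2 fold change was -0.14 in HEK-293T, and in HT-1080 it was -0.04, neither past the test. Single libraries changed both calls: LRPPRC was at 0.072 in HEK-293T without siHNRNPH1 replicate 1 (edgeR adjusted p = 0.0312) and at -0.084 in HT-1080 without siNegative replicate 2 (edgeR adjusted p = 0.00654). SLIRP stood at 49.5, 49.6 and 51.3 CPM in HEK-293T siNegative and at 99.9, 45.3 and 43.7 CPM under siHNRNPH1, where replicate 1 again lay on the other side of the controls, and without it the log2 fold change was -0.23 (edgeR adjusted p = 1.32e-05). In HT-1080 it stood at 59.3, 79.2 and 59.3 CPM and at 49.7, 60.0 and 57.8 CPM, and its log2 fold change of -0.31 passed the test (SE 0.12, edgeR adjusted p = 0.0424) but not without siNegative replicate 2 (-0.15, 0.140) or any siHNRNPH1 library (0.0518 to 0.162). POLRMT was higher in HT-1080 than in HEK-293T under siNegative, at 94.7 and 47.4 CPM on the means (log2 fold change 1.25, edgeR adjusted p = 3.90e-09), and did not pass the test under siHNRNPH1 in either line.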

How the data were processed

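For each cell line the authors deposited 1 table of expected counts per transcript, made with RSEM, and the submitters' processing notes name GRCh38.p13. The RSEM version, aligner, annotation, library preparation and strandedness are not given in the sources used here. Both tables list the same 251295 transcripts of 61906 genes, and 0 columns were left unmatched. The deposited IsoSeq model files hold exon positions and no read counts, and no value of them was tested.

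Expected counts were summed per gene identifier, rounded, filtered (filterByExpr), normalized by TMM scaling factors and fitted with edgeR 4.0.16 (R 4.3.3), whose quasi-likelihood test was used, two-sided and robust, with Benjamini-Hochberg adjustment over all genes tested and a threshold of 0.05. Each line was fitted on its 6 libraries, the lines were compared on the 6 siNegative libraries, and the interaction on all 12. Standard errors come from the F statistic. CPM and shares use unrounded sums and the total of all genes, with no scaling factor. DESeq2 1.42.0 served as an alternative. All genes of the mitochondrial genome that passed the filter were named, together with GRSF1, LRPPRC, SLIRP, POLRMT, TFAM and, per list, up to 3 genes called in both lines in 1 direction with the largest smaller change. The members, lists and tests were chosen with earlier results of these data known. Library totals ran from 27.3 M to 121.0 M counts, but counting error was not small beside the spread between replicates in every group. Among HT-1080 siHNRNPH1 libraries the chi-square per degree of freedom was 1.97 to 2.42, where counting error alone gives about 1. The p-values cover only counting error and the spread between libraries of a group. No pair of same-group libraries was alike within counting noise (chi-square per degree of freedom 1.78 to 847.3). The fits were also run on simulated counts. None of the simulated libraries was made to stand apart from its group, so those runs do not cover that case. Figures were drawn with matplotlib 3.10.9. No sequences are printed, since no reference sequence of the mitochondrial chromosome was used here.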

Additional observations from a re-analysis of the deposited data

Results flagged for a closer look

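A rule for a closer look was applied to the 15 mitochondrial mRNAs and rRNAs only. It was met where the effect of siHNRNPH1 differed between HT-1080 and HEK-293T in edgeR's interaction test over all 12 libraries. Results for 3 genes met it, which is near the share of 19.0% over all genes tested. The HT-1080 effect minus the HEK-293T effect, on the log2 scale, was 0.49 for MT-CO1 (edgeR adjusted p = 0.0188), -1.16 for MT-RNR1 (edgeR adjusted p = 0.00892) and -0.82 for MT-RNR2 (edgeR adjusted p = 0.0016). For each of these genes, all siHNRNPH1 libraries of HEK-293T lay on 1 side of all their controls in CPM and all those of HT-1080 on the other side. HEK-293T siHNRNPH1 replicate 1, the library that stood apart, was the highest of its group at MT-RNR1, where the difference was -0.89 without it. The MT-CO1 call was lost in several fits that left out 1 library (edgeR adjusted p up to 0.0605).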

How the results depend on the processing

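The number of mitochondrial mRNAs called in HEK-293T, 0 of 13, was 3 with DESeq2, 1 with a spread shared over all 12 libraries and 0 to 10 when single libraries were left out, where the 10 came without siHNRNPH1 replicate 1. In HT-1080, the 4 called became 7 with DESeq2, 9 with library size alone, 0 with the shared spread and 3 to 9 without single libraries (9 without siNegative replicate 2). Between the lines at baseline, the 9 called ran from 9 to 12 without single libraries. For the difference of effects between the lines, the 1 called became 5 with DESeq2, 2 with RLE scaling, 2 with library size alone and 0 to 10 without single libraries. Deviations of same-numbered replicates had correlations of 0.02, 0.05 and 0.02 in HEK-293T and of -0.06, 0.03 and 0.02 in HT-1080. The main fits treated the libraries as unpaired, and these correlations cannot exclude a batch shared by replicate number. With the replicate number as a block, the counts of mRNAs called were 0 in HEK-293T, 5 in HT-1080, 9 between the lines and 0 for the difference of effects, and the HEK-293T calls of MT-RNR2, HNRNPH1, MRPL42, MRPL50 and MRPL58 were lost (adjusted p = 0.0665 to 0.168), as were the differences of effects for MT-CO1 and TFAM (0.0767 and 0.0613) and the GRSF1 call between the lines (0.0914). Without a filter on low counts the HEK-293T call of MT-RNR2 (adjusted p = 0.188) and the differences of effects for TFAM and GRSF1 (0.0702 and 0.124) were lost, and with the shared spread all HT-1080 calls of mRNAs and those of MT-RNR2, GRSF1 and SLIRP were lost (0.0596 to 0.517). The SLIRP call was also lost with library size alone and without the filter (0.0952 and 0.221). Of the 109 listed nuclear genes, the 0 called in HEK-293T became 6 with DESeq2, 9 with the shared spread, 1 with library size alone and 88 without siHNRNPH1 replicate 1, the 57 called in HT-1080 became 25 with the shared spread, and the 14 with a difference of effects became 23 with DESeq2, 7 without the filter, 9 with the replicate block and 56 without HEK-293T siHNRNPH1 replicate 1. Shares of all genes called are given only for the main fits and those without HEK-293T siHNRNPH1 replicate 1. The counts of the other fits thus have no background beside them. The shares of the library total kept their direction when single libraries were left out. That of all mitochondrially encoded genes also kept it without the rRNAs and with the nuclear copies added. No alternative scaling was run for these shares. Values that changed sign follow, and the cause was not tested.

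On the log2 scale in HEK-293T, MT-ND2 was 0.042 with the shared spread, 0.0019 with library size alone and -0.092 to 0.013 without single libraries, while without single libraries MT-CO2 ran from -0.23 to 0.17, LRPPRC from -0.29 to 0.072 and SLIRP from -0.23 to 0.53. In HT-1080, MT-ND1 was -0.0059 with the shared spread, -0.015 without the filter and -0.028 to 0.039 without single libraries. MT-CO3 was 0.042 with library size alone and -0.062 to 0.029 without single libraries. MT-ATP6 was -0.0056, -0.014 and -0.022 to 0.034 in the order given for MT-ND1. POLRMT was -0.0043 without the filter and -0.017 to 0.050 without single libraries, and LRPPRC 0.033 with library size alone. At baseline, MT-ND2 was 0.0030 with DESeq2 and with RLE, MT-ND4L 0.012 and MT-CO3 0.019, with ranges without single libraries of -0.054 to 0.026, -0.094 to 0.094 and -0.079 to 0.032. MT-ATP8 was -0.21 with library size alone, -0.088 without the filter and -0.014 to 0.090 without single libraries. With library size alone, TFAM was -0.022 and GRSF1 -0.15, and GRSF1 was -0.033 without the filter. For the difference of effects, MT-CO2 was 0.075 with library size alone and 0.058 without the filter. Without single libraries, that difference ran from -0.11 to 0.48 for MT-ND6, -0.031 to 0.054 for MT-CYB, -0.20 to 0.25 for MT-CO2, -0.010 to 0.38 for MT-CO3, -0.0028 to 0.24 for MT-ATP6 and -0.16 to 0.16 for LRPPRC.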
